A study of Mus musculus with 20 samples.

Results

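The genes described here are 42 mouse genes of the cell cycle and of DNA replication, listed by symbol for their known function. All 42 were found among the 21883 protein-coding genes of chromosomes 1 to 19, X and Y in RefSeq GRCm38.p6, the assembly behind mm10. They comprised 8 cyclins and kinases of the G1 phase, 4 later genes (the S, G2 and M cyclins and Cdk1), 6 inhibitors of cyclin-dependent kinases, 10 replication genes, 5 genes of the E2F and pocket protein families, 7 genes of mitosis and proliferation, and 2 Myc genes. For each gene, peaks were counted over its body extended by 10 kb to either side, called the window below, and within 1 kb of the gene start.

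The study mapped 2 transcription factors and 3 histone modifications by CUT&Tag, in which an antibody directs a transposase to its target and the DNA next to it is sequenced. Nuclei came from CVGs dissected at E11.5 from embryos of the mouse strain C57BL/6J. CVG is a common short form for the cochleovestibular ganglion, which holds the forming auditory and vestibular neurons. The series title asks how the factors ISL1 and POU4F1 act together in these neurons. A total of 20 libraries were listed, all of the same strain, age and tissue, with no mutant or treated group in the labels. Of these, 14 had a peak list: ISL1_26 (n = 1) and ISL1_70 (n = 3), which carry the same antibody label and were taken as 4 libraries of 1 target, POU4F1 (n = 2), H3K4me3 (n = 2), H3K27me3 (n = 3) and H3K27ac (n = 3). The 6 IgG libraries were not analysed here, so there is no background measured in the same way. The labels do not say whether libraries of a target came from separate dissections, and the spread between them may be technical. The library labelled H3K4me3 replicate 1 went against its label, with start peaks at few of the genes that replicate 2 marked and at each of those with H3K27me3, so H3K4me3 is described from replicate 2 and the other library separately.

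Progress through the cell cycle is driven by cyclins and the kinases they activate. D-type cyclins with CDK4 or CDK6, and E-type cyclins with CDK2, phosphorylate the retinoblastoma family of pocket proteins, which frees E2F factors to switch on replication and S-phase genes; A- and B-type cyclins with CDK1 carry the cell through mitosis. The Cip/Kip inhibitors (Cdkn1a, Cdkn1b and Cdkn1c) and the Ink4 inhibitors (Cdkn2a, Cdkn2c and Cdkn2d) oppose these kinases, and neuroblasts leave the cycle as they become neurons. H3K4me3 marks promoters, H3K27ac marks active promoters and enhancers, and H3K27me3 is laid down by Polycomb at repressed genes.

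Promoter sequences from RefSeq (GRCm38.p6) were at hand for 32 of the 42 genes, with 39 start sites. E2F-type sites (TTTCCCGC, TTTGGCGC or TTTCGCGC, searched on both strands) are the elements through which E2F acts at replication genes. They occurred in 13 of the 39 promoters of 300 bases (33.3%) and in 2.41% of 21262 promoters of all protein-coding genes. TTTGGCGC and TTTCGCGC can overlap on opposite strands. The 13 matches were in Cdk2, Cdk1, Cdkn2a, Mcm3, Mcm5, Mcm6, Mcm7, Cdc6, Cdt1, E2f2, E2f3, Rbl1 and Mycn. The cell cycle homology region, CHR (TTTGAA, both strands), known from genes of G2 and mitosis, was in 11 of 39 (28.2% against 16.0%), among them Ccnb2, Cdk1, Mki67, Top2a, Aurka, Plk1 and Cdc20. The CCAAT box (both strands) was in 25 of 39 (64.1% against 38.2%). The short LIM homeodomain-type word CTAATG was in 2 of 39 (5.13% against 6.44%) and the POU4F-type word ATTAAT also in 2 (5.13% against 4.04%). A match is a description of the letters and not of a bound site. The 250 bases before the start are given for 5 genes on which results below turn: Mcm6 (chr1:128359706-128359955) and Pcna (chr2:132253181-132253430), whose starts had ISL1 peaks in 3 libraries, Cdk1 (chr10:69352913-69353162) and Mycn (chr12:12941837-12942086), with ISL1 peaks in 2, and the outer start of Cdkn2a (chr4:89294620-89294869), which lay within H3K27me3. All 5 genes are on the minus strand, and capitals mark E2F-type, CHR and CCAAT matches on either strand.
Mcm6: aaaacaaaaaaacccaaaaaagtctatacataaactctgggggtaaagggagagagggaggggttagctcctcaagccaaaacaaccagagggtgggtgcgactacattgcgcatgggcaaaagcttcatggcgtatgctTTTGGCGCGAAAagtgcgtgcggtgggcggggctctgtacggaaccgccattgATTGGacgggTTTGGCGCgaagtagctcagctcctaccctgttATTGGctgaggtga
Pcna: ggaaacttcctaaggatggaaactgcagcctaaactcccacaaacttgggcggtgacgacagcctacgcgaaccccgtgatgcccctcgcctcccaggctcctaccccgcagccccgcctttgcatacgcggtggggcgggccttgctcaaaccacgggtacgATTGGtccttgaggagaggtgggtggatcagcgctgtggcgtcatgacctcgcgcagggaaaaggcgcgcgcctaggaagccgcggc
Cdk1: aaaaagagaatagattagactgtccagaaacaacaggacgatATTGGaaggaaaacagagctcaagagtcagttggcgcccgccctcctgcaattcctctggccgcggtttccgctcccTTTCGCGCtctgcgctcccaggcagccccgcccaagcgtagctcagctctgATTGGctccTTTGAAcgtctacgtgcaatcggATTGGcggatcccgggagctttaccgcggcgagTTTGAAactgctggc
Mycn: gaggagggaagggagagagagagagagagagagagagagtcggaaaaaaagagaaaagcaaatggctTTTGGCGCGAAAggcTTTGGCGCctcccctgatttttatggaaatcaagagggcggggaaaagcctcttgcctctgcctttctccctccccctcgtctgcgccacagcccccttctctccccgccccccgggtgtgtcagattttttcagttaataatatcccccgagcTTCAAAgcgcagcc
Cdkn2a: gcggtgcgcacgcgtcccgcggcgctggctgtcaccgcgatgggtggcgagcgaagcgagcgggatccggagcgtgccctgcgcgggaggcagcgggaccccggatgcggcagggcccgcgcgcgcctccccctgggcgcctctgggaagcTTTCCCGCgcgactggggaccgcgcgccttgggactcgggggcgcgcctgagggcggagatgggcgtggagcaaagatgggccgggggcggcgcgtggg

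The Mcm6 sequence held E2F-type matches beginning 110, 106 and 47 bases before the start, the first and second overlapping on opposite strands, and CCAAT boxes at 57 and 14 bases. Pcna, the sliding clamp of DNA polymerase, had a CCAAT box 87 bases before the start and none of the searched E2F-type words. Cdk1, the mitotic kinase, had an E2F-type match at 131 bases and CHR matches at 71 and 15. Mycn had 3 E2F-type matches between 183 and 168 bases before the start, and Cdkn2a had 1 at 99 bases.

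**Figure D1:**
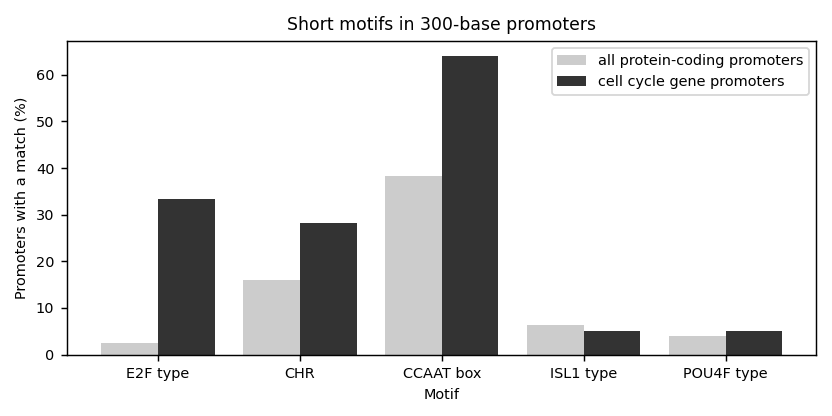
Share of promoters of 300 bases (y axis, %) with at least 1 match to each word on either strand (x axis), for all 21262 protein-coding promoters and for the 39 promoters of the cell cycle genes. E2F-type words were in 33.3% of the cell cycle promoters and 2.41% of all promoters, whereas the ISL1-type and POU4F-type words were within 2 percentage points of all promoters.

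Most cell cycle genes carried the marks of active promoters. A replicated H3K27ac region, that is, overlapping peaks from at least 2 of the 3 libraries, lay at the start of 35 of 42 genes (83.3%), against 46.8% of all protein-coding genes and 48.8% after all genes were weighted to the gene lengths of the 42. By library, H3K27ac peaks were at 27 starts in replicate 1 (64.3%, all genes 24.6%), 39 in replicate 2 (92.9%, all genes 54.3%) and 35 in replicate 3 (83.3%, all genes 55.2%). The share was thus above that of all genes in each library, by 35.4 ± 6.36 percentage points (SD, n = 3). Peaks in all 3 libraries lay at 25 starts (59.5%, all genes 21.3%). Without replicate 2, 21 of 42 starts had a replicated region, against 21.4% of all genes. Replicated H3K27ac covered the starts of 8 of 8 G1 genes, 3 of 4 later cyclin and kinase genes, 4 of 6 inhibitors, 8 of 10 replication genes, 5 of 5 E2F and pocket protein genes, 5 of 7 mitotic genes and both Myc genes. Over the whole window, replicated H3K27ac was present at 38 genes (all genes 65.0%). Single libraries had a peak in 33, 40 and 41 windows, where all genes stood at 37.8%, 73.3% and 82.2%.

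In H3K4me3 replicate 2, 33 starts had a peak (78.6%, all genes 40.5%), and 29 starts had both this peak and replicated H3K27ac (69.0%, all genes 33.9%). Among the 35 acetylated starts the H3K4me3 share was 82.9%, against 72.5% of all acetylated starts. In the window, 38 genes had an H3K4me3 replicate 2 peak (all genes 60.4%). The library labelled H3K4me3 replicate 1 had peaks at only 8 starts (19.0%, all genes 20.4%) and in 13 windows (31.0%, all genes 33.1%). Those 8 genes were Ccnd1, Ccnd2, Cdk4, Cdk6, Cdkn1a, Cdkn1c, Cdkn2a and Cdkn2c, which include the 7 genes with replicated H3K27me3 described below.

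**Figure D2:**
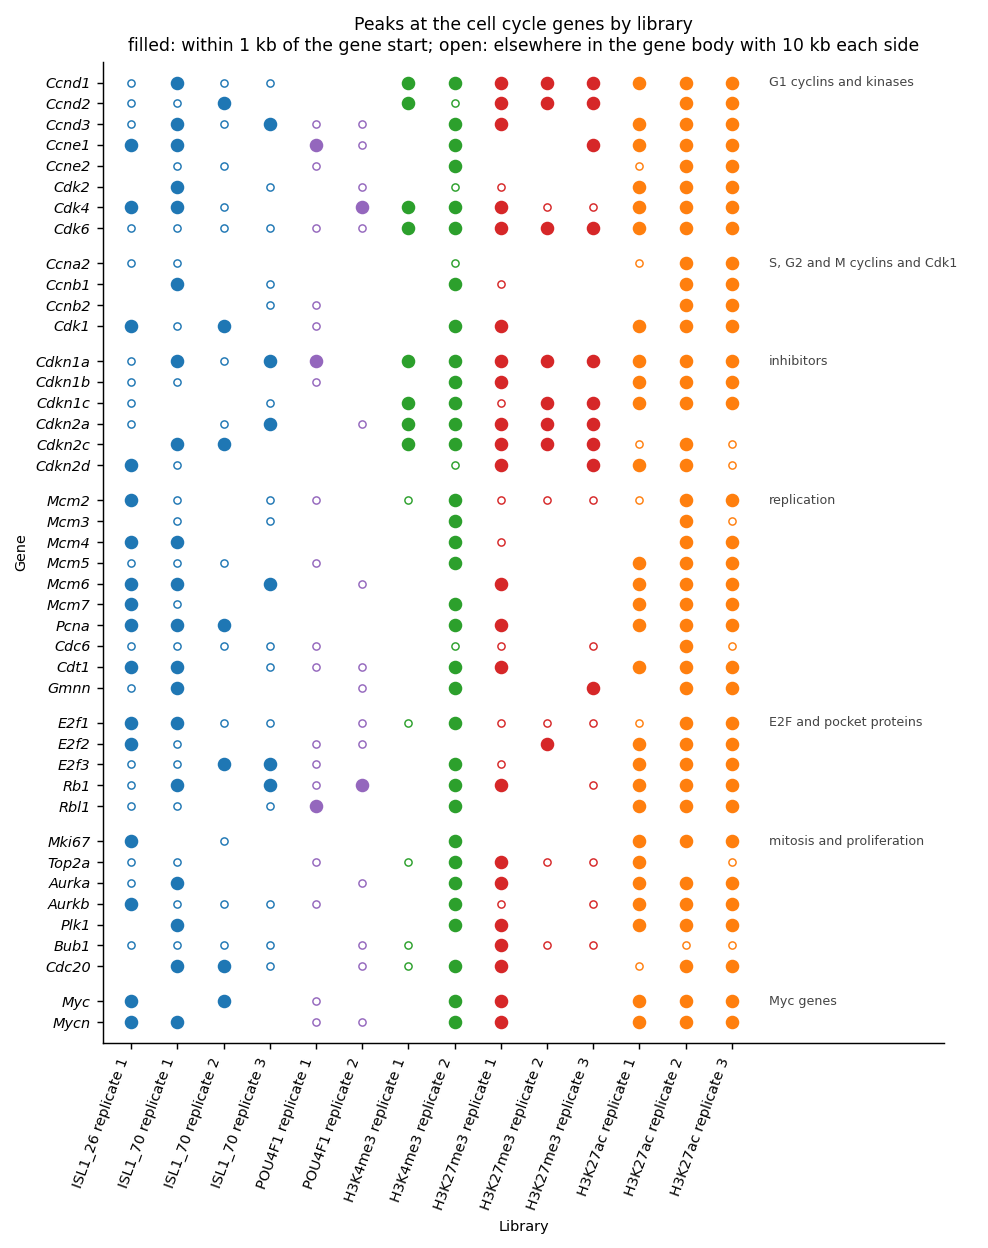
Peaks of 14 libraries (x axis) at the 42 genes (y axis, grouped by role). Filled circles are peaks within 1 kb of the gene start and open circles are peaks elsewhere in the gene body with 10 kb each side; H3K27ac is filled for 39 genes in replicate 2, while H3K27me3 replicates 2 and 3 are filled for 8 and 10.

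The 7 genes without replicated H3K27ac at the start were Ccnb2, Cdkn2a, Cdkn2c, Mcm3, Cdc6, Top2a and Bub1. Mcm3, Cdc6 and Cdkn2c had a start peak in replicate 2 alone and Top2a in replicate 1 alone, while the peaks of replicates 2 and 3 at Ccnb2, a mitotic cyclin, did not overlap. Only Cdkn2a and Bub1, a spindle checkpoint kinase, had no H3K27ac peak at the start in any library (4.76% of the 42, against 35.5% of all genes). The Cdkn2a window was the only one of the 42 with no H3K27ac peak at all. Bub1 had single H3K27ac peaks elsewhere in its window in replicates 2 and 3 and no H3K4me3 replicate 2 peak anywhere.

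H3K27me3 at the start differed between the roles. Replicated H3K27me3 lay at the start of 7 of 42 genes (16.7%), close to the 19.6% of all protein-coding genes, and all 7 were either inhibitors (4 of 6: Cdkn1a, Cdkn1c, Cdkn2a and Cdkn2c) or G1 genes (3 of 8: Ccnd1, Ccnd2 and Cdk6). No gene of the replication, E2F and pocket protein, mitotic, Myc or later cyclin groups had it. By library, H3K27me3 peaks were at 22 starts in replicate 1 (52.4%, all genes 27.8%), 8 in replicate 2 (19.0%, all genes 19.0%) and 10 in replicate 3 (23.8%, all genes 25.2%). Replicate 1 stood apart, with a median −log10 q of 1.09 over its list, just above the cutoff of 1. The same 7 genes were found when any 1 of the 3 libraries was left out (16.7%, all genes 9.77% to 18.7%). Without replicate 2 or 3, each call needs a replicate 1 peak. The strongest replicate 1 peaks in the windows of Ccnd1, Ccnd2, Cdk6 and Cdkn1c had a −log10 q of only 1.09. At Cdkn1c the replicate 1 peak lay outside the start window. Beyond these 7, replicate 2 had a start peak at E2f2, and replicate 3 at Ccne1, Cdkn2d and Gmnn. In the window, replicated H3K27me3 was present at 12 genes (28.6%, all genes 31.1%), and single libraries had peaks in 31, 13 and 18 windows (all genes 49.9%, 30.5% and 47.6%).

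The inhibitors carried H3K27me3 at a larger share of starts than the cyclins and replication genes. Among the 6 inhibitors, replicated H3K27me3 covered 4 starts (66.7%; genes of their length, 19.2%), and among the 8 cyclins and 10 replication genes it covered 2 of 18 (11.1%; genes of their length, 18.4%), both D-type cyclins. The difference was 55.6 percentage points. It was 55.6 ± 5.56 points over single libraries (SD, n = 3), up to 61.1 in the library with the largest difference, and each library showed it. For H3K27ac (all genes 46.8%) the same contrast had no stable direction. Replicated H3K27ac was at 4 of 6 inhibitors (66.7%, genes of their length 42.3%). It was at 15 of 18 cyclins and replication genes (83.3%, genes of their length 49.5%), a difference of −16.7 points. Single libraries differed by −11.1 ± 30.9 points (SD, n = 3, range −38.9 to 22.2). Without replicate 2 the H3K27ac difference was 5.56 points and without replicate 3 it was 16.7 points, both in the opposite direction. Each of the 6 inhibitors counts for 16.7 points, which limits the precision of their share.

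**Figure D3:**
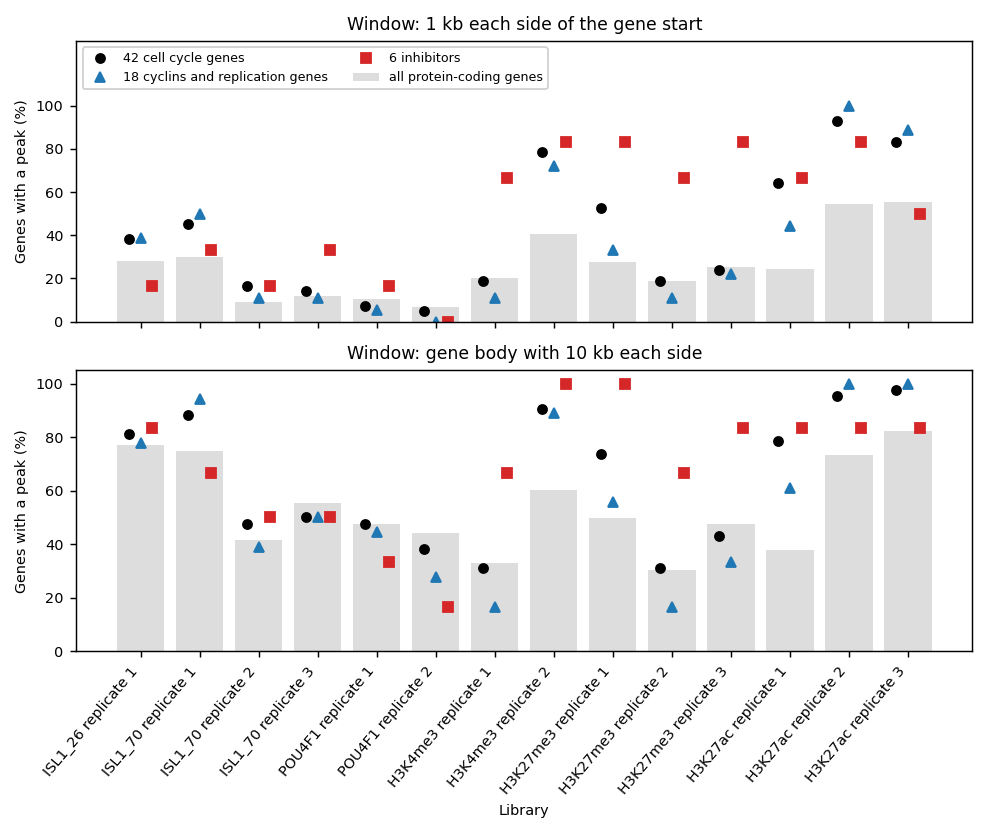
Share of genes with a peak (y axis, %) in each of 14 libraries (x axis), at the gene start (upper panel) and over the gene body with 10 kb each side (lower panel), for all protein-coding genes (bars), the 42 cell cycle genes (circles), the 18 cyclins and replication genes (triangles) and the 6 inhibitors (squares). At the start, H3K27me3 peaks reached 66.7% to 83.3% of inhibitors against 11.1% to 33.3% of cyclins and replication genes.

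Cdkn2a, which encodes an Ink4 inhibitor and the Arf protein from separate starts, had the broadest H3K27me3. Peaks covered 31.4 kb (78.2%) of its window in replicate 2 and 32.2 kb (80.1%) in replicate 3. The widest single peaks at its starts measured 11.7 kb and 12.9 kb. Replicate 1 had only a narrow peak there, with a −log10 q of 1.09. The replicated regions ran over chr4:89271892-89284798 and chr4:89285347-89298111, across both starts and nearly the whole gene (chr4:89274473-89294619). H3K27ac was not called in any library, and H3K4me3 replicate 2 had a peak of 0.556 kb at the outer start.

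Cdkn2c, another Ink4 inhibitor (chr4:109660876-109666756), had H3K27me3 at its start in all 3 libraries. The widest peaks were 2.68 kb in replicate 2 and 1.03 kb in replicate 3, and the replicated region was chr4:109663851-109666527. Peaks covered 35.2% and 16.1% of the window. A weak H3K27ac peak of 0.63 kb was called in replicate 2 at a −log10 q of 4.1, and the start lacked H3K27ac in replicates 1 and 3.

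Cdkn1a (chr17:29090979-29100722) and Cdkn1c (chr7:143458339-143461059) carried both H3K27me3 and H3K27ac. At Cdkn1a the widest H3K27me3 peaks were 1.9 kb and 1.76 kb in replicates 2 and 3, and the H3K27ac peaks were 0.942, 1.85 and 1.38 kb in replicates 1 to 3. At Cdkn1c the H3K27me3 peaks were 1.16 kb and 1.74 kb, and the H3K27ac peaks 0.505, 3.25 and 2.77 kb. H3K4me3 replicate 2 peaks of 1.57 kb at Cdkn1a and 1.68 kb at Cdkn1c overlapped the same starts. Both marks were thus called at the same starts, whereas Cdkn2a had H3K27me3 without H3K27ac.

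Cdkn1b and Cdkn2d lacked replicated H3K27me3. Cdkn1b (chr6:134920401-134925525) had H3K27ac peaks of 1.91, 2.35 and 1.46 kb at its start, within the strongest 8.75%, 1.66% and 5.74% of the 3 lists by −log10 q. Its H3K4me3 replicate 2 peak was 2.02 kb wide. H3K27me3 replicate 1 had 3 narrow peaks in its window, of which one of 419 bp at a −log10 q of 1.09 lay at the start, and replicates 2 and 3 had none. Cdkn2d (chr9:21288459-21291421) had H3K27ac at its start in replicates 1 and 2. H3K27me3 was called at its start in 2 of 3 libraries without overlap, as a peak of 545 bp in replicate 1 at a −log10 q of 2.85 and one of 311 bp in replicate 3 at 1.33.

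**Figure D4:**
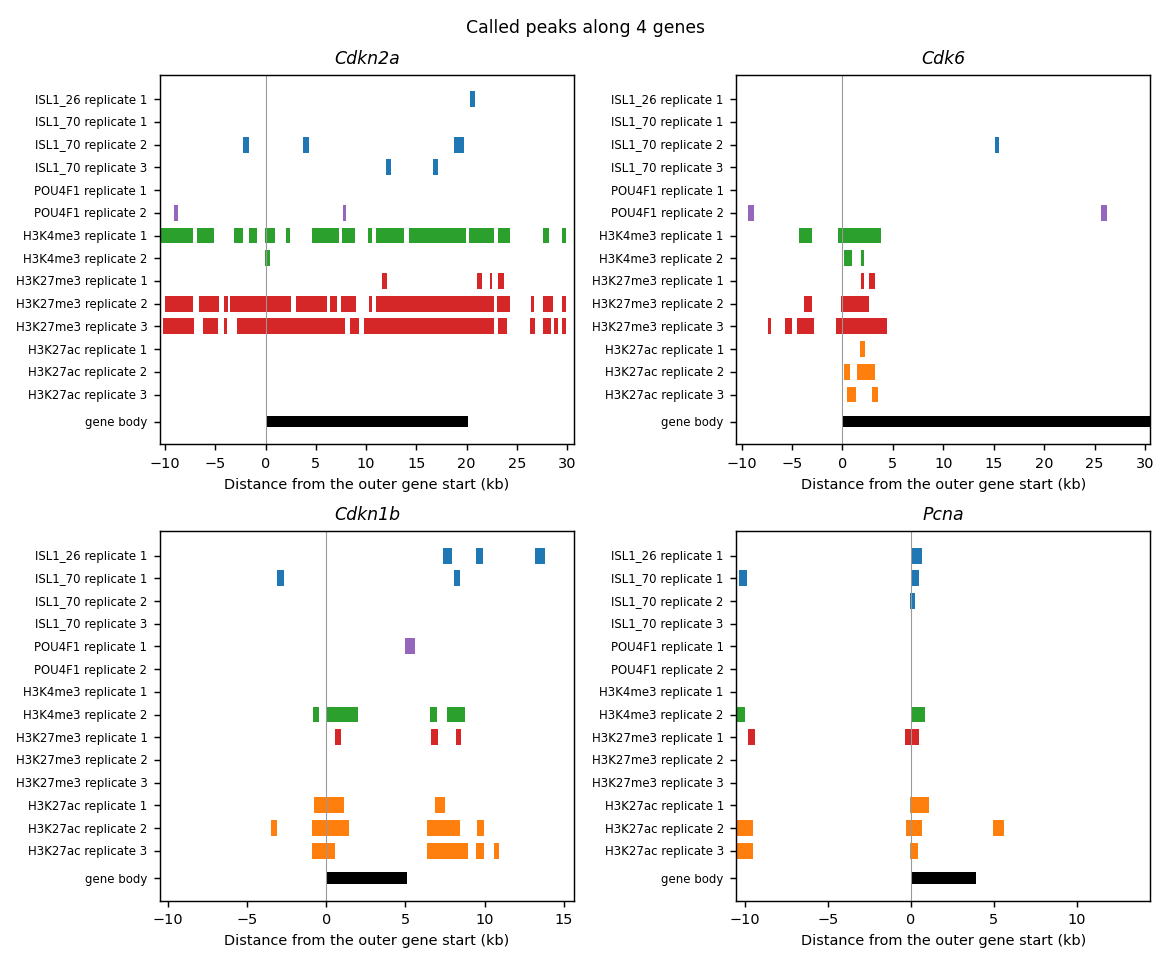
Called peaks of 14 libraries (rows) along Cdkn2a, the first part of Cdk6, Cdkn1b and Pcna (x axis, distance from the outer gene start in kb; black, gene body). H3K27me3 replicates 2 and 3 cover 78.2% and 80.1% of the Cdkn2a window and are absent at Cdkn1b, where replicate 1 has 3 narrow peaks, and ISL1 peaks of 3 libraries coincide at the start of Pcna.

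Among the G1 genes, Ccnd1, Ccnd2 and Cdk6 had H3K27me3 and H3K27ac at the same start. Ccnd1 (chr7:144929931-144939831), a D-type cyclin, had H3K27me3 peaks of 1.17 kb and 1.08 kb in replicates 2 and 3 beside H3K27ac peaks of 0.785, 1.72 and 1.6 kb. Ccnd2 (chr6:127125162-127152188) had a broader domain of 7.54 kb in replicate 2 and 4.5 kb in replicate 3. Its H3K27ac was narrower, at 1.31 kb and 0.773 kb in replicates 2 and 3 and absent in replicate 1, and no H3K4me3 replicate 2 peak reached its start. Cdk6 (chr5:3341004-3531008) had H3K27me3 of 2.74 kb and 5.03 kb, with H3K27ac peaks of 0.481, 1.78 and 0.595 kb. Ccnd3 (chr17:47505051-47599689) had H3K27ac in all 3 libraries, up to 3.47 kb wide in replicate 2, and no H3K27me3 in replicates 2 or 3.

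**Figure D5:**
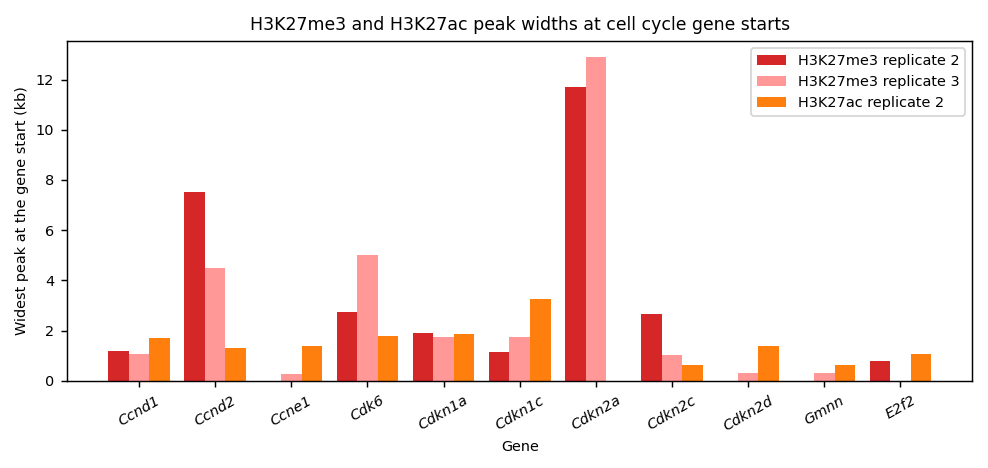
Width in kb (y axis) of the widest peak at the gene start in H3K27me3 replicates 2 and 3 and H3K27ac replicate 2, for the 11 genes with a start peak in H3K27me3 replicate 2 or 3 (x axis). Cdkn2a reached 12.9 kb with no H3K27ac, Ccnd2 reached 7.54 kb, and Ccne1, Cdkn2d, Gmnn and E2f2 had H3K27me3 in 1 of these 2 libraries.

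Starts with both replicated marks numbered 5 (11.9%, all genes 7.11%): Ccnd1, Ccnd2, Cdk6, Cdkn1a and Cdkn1c. For Ccnd1, Ccnd2 and Cdkn1c, which lack a promoter entry, either end of the gene counted as the start. Of the 32 genes with a known start, 2 had both marks (6.45% of all such genes). Of the 10 without, 3 had both (9.74% of all such genes). Among the 35 acetylated starts the share with both marks was 14.3%, close to the 15.2% of all acetylated starts. In bulk tissue, both marks on the same chromatin cannot be told apart from each mark in different cells, nor a strong signal in few cells from a weak signal in many.

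Replication genes had replicated H3K27ac at 8 of 10 starts (all genes 46.8%) and replicated H3K27me3 at none (all genes 19.6%). In single libraries, H3K27me3 replicate 1 had start peaks at Mcm6, Pcna and Cdt1 (30.0% of the 10, all genes 27.8%). Replicate 2 had none (all genes 19.0%) and replicate 3 had 1, at Gmnn (10.0%, all genes 25.2%). A replicated H3K27me3 region lay in the Mcm2 window away from the start. H3K27ac replicate 2 had a start peak at 10 of 10 (all genes 54.3%), from 0.413 kb at Mcm6 to 1.97 kb at Cdt1. Pcna had H3K27ac peaks of 1.1, 0.974 and 0.526 kb. Cdt1, which loads the replicative helicase, had peaks of 0.568, 1.97 and 1.4 kb. Among the genes of the MCM helicase, Mcm5, Mcm6 and Mcm7 had start peaks in all 3 H3K27ac libraries, Mcm2 and Mcm4 in replicates 2 and 3, and Mcm3 in replicate 2 only. H3K4me3 replicate 2 marked 8 of 10 replication starts (all genes 40.5%), Mcm6 and Cdc6 being the exceptions.

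The E2F, pocket protein and Myc genes and 5 of 7 mitotic genes had replicated H3K27ac at the start (all genes 46.8%). At E2f3, a transcriptional activator of S-phase genes, H3K27ac peaks were 2.14, 3.79 and 2.54 kb and the H3K4me3 replicate 2 peak 2.96 kb. E2f1 had no start peak in replicate 1 and peaks of 2.98 and 2.54 kb in replicates 2 and 3. Rb1, the retinoblastoma gene, had peaks of 0.481, 1.17 and 1.27 kb. Mycn, the Myc gene best known from neural progenitors, had H3K27ac peaks of 1.27, 4.56 and 1.61 kb and the widest H3K4me3 replicate 2 peak of the 42 starts, 3.88 kb. Its relative Myc had H3K27ac of 0.676, 1.53 and 1.69 kb but an H3K4me3 peak of only 0.38 kb. Cdc20, an activator of the anaphase-promoting complex, had H3K27ac peaks of 1.42 and 1.89 kb in replicates 2 and 3.

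Each of the 42 windows had an ISL1 peak in at least 1 library, as did 92.8% of all genes. By library, windows with a peak numbered 34 in ISL1_26 replicate 1 (81.0%, all genes 76.9%), 37 in ISL1_70 replicate 1 (88.1%, all genes 75.0%), 20 in ISL1_70 replicate 2 (47.6%, all genes 41.7%) and 21 of 42 in ISL1_70 replicate 3 (all genes 55.4%). The mean excess over all genes was 4.42 ± 7.6 percentage points (SD, n = 4), smaller than the spread between libraries. A replicated ISL1 region was in 19 windows (45.2%), against 38.0% of all genes and 36.1% at matched gene length. A region called in 3 or 4 libraries was in 3 windows (7.14%, all genes 12.6%), those of Mcm6, Pcna and Cdc6, and a region in all 4 only in that of Cdc6 (2.38%, all genes 4.2%). The count of 19 fell to 10 without ISL1_26 replicate 1 (23.8%, all genes 19.9%) and to 9 without ISL1_70 replicate 1 (21.4%, all genes 21.0%).

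At gene starts the ISL1 shares were 38.1% (all genes 28.3%), 45.2% (29.9%), 16.7% (9.24%) and 14.3% (11.8%) in the same order of libraries, each above that of all genes, by 8.76 ± 5.33 points (SD, n = 4). Replicated ISL1 was at 11 starts (26.2%, all genes 14.7%). Acetylated promoters in general had more ISL1, and set against them the excess shrank: replicated ISL1 lay at 10 of the 35 acetylated cell cycle starts (28.6%) and at 25.8% of 10237 acetylated starts. Single libraries gave 45.7%, 51.4%, 17.1% and 14.3% of the 35, where all acetylated starts gave 41.8%, 47.3%, 12.4% and 17.2%. Over the window, the 35 genes were below all acetylated genes, at 42.9% against 52.0%, without weighting to gene length.

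ISL1 did not separate inhibitors from cyclins and replication genes beyond the spread of its libraries. Replicated regions were in the windows of 1 of 6 inhibitors (Cdkn2c; 16.7%, genes of their length 29.0%) and 8 of 18 cyclins and replication genes (44.4%, genes of their length 34.6%). Single libraries differed by −2.78 ± 17.3 points (SD, n = 4; −27.8 to 11.1). By role, a replicated ISL1 region was in the windows of 5 of 8 G1 genes, 1 of 4 later cyclin and kinase genes and 5 of 10 replication genes. It was also in those of 2 of 5 E2F and pocket protein genes, 3 of 7 mitotic genes and both Myc genes. The share of all genes was 38.0%, and groups this small do not separate the roles.

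The 19 windows held 25 replicated ISL1 regions, of which 22 were called in 2 libraries. Of the 25, 15 lay at a start of some protein-coding gene (60.0%, against 22.4% of the 13485 regions in all gene windows). For some of the 15 this was the start of a neighbouring gene and not of the cell cycle gene. Replicated H3K27ac overlapped 20 (80.0% against 53.7%) and H3K4me3 replicate 2 overlapped 12 (48.0% against 17.6%). These shares of regions were not weighted to gene length. Replicated H3K27me3 overlapped 4 (16.0% against 8.96%). The closest summits of 2 libraries lay within 200 bp of each other in 12 of the 25 (48.0% against 56.4%), with a median distance of 302 bp against 167 bp. In the other 13, the called peaks overlapped while their summits stood 302 bp to 960 bp apart, as at Cdk1 (518 bp), Ccnd1 (638 bp) and E2f3 (960 bp). Fold below is the authors' value for each peak. Rank was computed here from the authors' −log10 q. It is the position of the peak in its list from the strongest down, as a percentage of the list. Tied peaks share their mean position.

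Among the replication genes, Pcna and Mcm6 had ISL1 peaks at the start in 3 libraries. The Pcna region (chr2:132252491-132253237) held peaks of 30.2-fold in ISL1_26 replicate 1 (rank 3.05%), 28.8-fold in ISL1_70 replicate 1 (4.42%) and 61.6-fold in ISL1_70 replicate 2 (8.69%), and no peak in ISL1_70 replicate 3. Closest summits were 65 bp apart, and H3K27ac was called there in all 3 libraries. The Mcm6 start region (chr1:128358802-128360064) had ISL1 peaks of 15.4-fold (15.7%) and 29.7-fold (3.81%) in ISL1_26 and ISL1_70 replicate 1, and a weak peak of 4.16-fold (62.5%) in ISL1_70 replicate 3. Both promoters are shown above. CTAATG matched the 300-base Pcna promoter from 1 base before the start, and neither CTAATG nor ATTAAT matched that of Mcm6.

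The region in the Cdc6 window called in all 4 ISL1 libraries (chr11:98931985-98933811) lay 23.8 kb from the start of Cdc6, a helicase loader, and overlapped Rara, which encodes a retinoic acid receptor. Its peaks were 13.2-fold (rank 3.76%), 43.6-fold (0.802%), 16.9-fold (49.3%) and 42.9-fold (0.586%). POU4F1 replicate 1 had a peak there at 18.3-fold (70.5%). The Cdc6 start itself had no ISL1 peak in any library. Mcm2 had a strong peak at its start in ISL1_26 replicate 1 alone (46.8-fold, rank 1.09%) and no replicated region.

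Among the G1 genes, Ccnd3 had 3 replicated ISL1 regions in its body. At the inner start, peaks of 15.4-fold in ISL1_70 replicate 1 and 31.3-fold in ISL1_70 replicate 3 had summits 74 bp apart, at chr17:47593308-47593760. Ccnd1 had a region inside the gene (chr7:144935532-144936603). Ccnd2 had a region at chr6:127149189-127149967, inside its H3K27me3 domain. Cdk6 had 2 regions, 92.3 kb and 191 kb from its start.

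Cdk1 had an ISL1 region at its start (chr10:69352341-69353258), with peaks of 17.4-fold (12.1%) in ISL1_26 replicate 1 and 43.7-fold (26%) in ISL1_70 replicate 2. Ccna2, the S-phase cyclin, had peaks in ISL1_26 and ISL1_70 replicate 1 that did not overlap. E2f1 had 3 regions, and at the one nearest its start (chr2:154568524-154569383) peaks of 25.0-fold (5.25%) and 22.8-fold (7.76%) had summits only 6 bp apart. Rb1 had no replicated region, although ISL1_70 replicate 1 had a 27.9-fold peak (4.7%) within 1 kb of an end of the gene. Bub1 had a region within the neighbouring gene Acoxl, and Cdc20 none. At Mycn, peaks of 16.0-fold (13.7%) and 6.64-fold (71.8%) overlapped at the start (chr12:12941141-12942349), with closest summits 418 bp apart. At Myc, weak peaks of 7.08-fold (62.4%) and 4.26-fold (90.2%) lay at chr15:61984446-61984987, with closest summits 44 bp apart.

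ISL1 peaks of different libraries overlapped at 1 of the 6 inhibitors, although each inhibitor window had peaks in at least 2 libraries. At Cdkn2c, ISL1_70 replicate 1 had a peak of 18.6-fold (12.2%) and ISL1_70 replicate 2 of 33.2-fold (41.2%) in a region at the start (chr4:109665315-109667005) that also had H3K27me3 in all 3 libraries. Closest ISL1 summits in the region were 358 bp apart. Cdkn2a had a strong peak near its inner start in ISL1_70 replicate 3 alone (chr4:89282105-89282639, 99.1-fold, rank 1.26%). Cdkn1a had peaks in all 4 libraries, but none of them overlapped between libraries. Cdkn1b had ISL1 peaks in ISL1_26 and ISL1_70 replicate 1 only, none at its start, the strongest 23.7-fold (7.26%). Cdkn1c had peaks in ISL1_26 replicate 1 and ISL1_70 replicate 3, and Cdkn2d in ISL1_26 and ISL1_70 replicate 1, without overlap.

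POU4F1 had no replicated region in any of the 42 windows (all genes 1.92%, and 1.64% at matched gene length) and none at a start (all genes 0.475%). Since 1.92% of 42 is less than 1 gene, the count of 0 was not distinguishable from the share of all genes. POU4F1 replicate 1 had peaks in 20 windows (47.6%, all genes 47.4%) and replicate 2 in 16 (38.1%, all genes 44.0%). Among genes with acetylated starts the shares were 48.6% and 40.0% of the 35, against 57.8% and 48.2% of all such genes, without weighting to gene length. In 7 windows both libraries had a peak at different places, 22 had a peak in 1 library and 13 had none. A peak in at least 1 library was thus in 29 windows (69.0%), near the 66.0% of all genes. How often both libraries had peaks at different places was not counted for all genes. At starts, replicate 1 had peaks at Ccne1, Cdkn1a and Rbl1 (7.14%, all genes 10.6%) and replicate 2 at Cdk4 and Rb1 (4.76%, all genes 6.63%).

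The POU4F1 peak at Cdk4, the kinase partner of D-type cyclins, had 30.9-fold enrichment (rank 7.06%, chr10:127063468-127063902) and overlapped the replicated ISL1 region at the Cdk4 start (chr10:127063347-127064048). It and the Cdc6 region were the only 2 of the 25 ISL1 regions with a POU4F1 peak, 1 from each library. For all gene windows these shares were 14.1% for replicate 1 and 3.86% for replicate 2, and for the 25 regions 4.0% each. At Cdt1, peaks of POU4F1 replicate 1 (68.3-fold, rank 4.84%) and replicate 2 (23.4-fold, 20.3%) stood close together about 11 kb downstream, without overlapping.

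A further 78 cell cycle genes, among them origin recognition, GINS, polymerase, condensin and kinetochore genes, were counted in the same way. Replicated H3K27ac was at 59 of 78 starts (75.6%, all genes 46.8%) and H3K4me3 replicate 2 at 62 (79.5%, all genes 40.5%). Replicated H3K27me3 was at 5 starts (6.41%), below the 19.6% of all genes and the 19.3% of genes of their length. Replicated ISL1 was in 34 windows (43.6%), against 38.0% of all genes and 38.1% of genes of their length. The 5 with H3K27me3 were Pole, Rrm2, Cdkn2b, E2f8 and Rbl2; among them Cdkn2b is the Ink4 inhibitor next to Cdkn2a, and Rbl2 is a pocket protein. No replicated POU4F1 region lay in the 78 windows (all genes 1.92%, genes of their length 1.62%). With shares this small, a count of 0 does not separate these genes from all genes.

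Several features of the lists bear on these values. They held from 8855 (H3K27ac replicate 1) to 168144 peaks (H3K27ac replicate 3), and read totals are unknown, so the absence of a peak and too few reads cannot be told apart. Another protein-coding gene lay within 29 of the 42 windows, and the end of a neighbouring gene within 6 of the start windows (Ccnd1, Ccna2, Mcm4, Mcm7, Pcna and Aurka), so a peak there cannot be assigned to 1 gene. For the 10 genes with no promoter entry (Ccnd1, Ccnd2, Ccne2, Ccna2, Cdkn1c, Mcm4, Gmnn, Rb1, Aurkb and Myc) both ends of the gene were used. The median gene length was 12.0 kb for the 42 and 17.2 kb for all genes. As a check of the tissue, replicated H3K27ac lay at the starts of 11 of 12 sensory neuron marker genes, where all genes stood at 46.8%. It lay at 3 of 6 of glia and neural crest, 1 of 5 of mesenchyme, 2 of 5 of endothelium and blood, and 3 of 5 of otic epithelium. Replicated H3K27me3 lay at 10, 4, 5, 2 and 4 of the same lists (all genes 19.6%), the sensory neuron list included. Both marks were thus called at markers of several cell types, and dividing and postmitotic cells cannot be told apart in these bulk libraries.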

How the data were processed

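Peaks were called by the authors library by library with MACS2 against a control, per the file headers. Which control and options were used is not given in the sources used here. The build mm10 and the tools FastQC, Bowtie2 and SEACR are named in the submitters' processing notes without versions or roles. The deposited fold enrichment is a ratio to the caller's background, and the deposited −log10 p-value and −log10 q-value rank the peaks of a list; both are the authors' values and were not used to compare lists. Lists end at a −log10 q of 1.

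Overlapping peaks of 1 target (1 bp or more in common) were merged, and regions with peaks in at least 2 libraries were called replicated (Python 3.11.15, pandas 2.3.3, NumPy 2.4.6). Gene starts came from the RefSeq promoter table (GRCm38.p6); for genes without an entry, 1 kb around both ends of the gene was used in place of the planned start. Each count stands beside the share of all protein-coding genes and that share averaged over 20 bins of gene length as the chosen genes fill them. Genes are not replicates, so no test was run. The counting was tested on simulated data. Depth is unknown, so the number of libraries limits the precision.

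The 42 genes, the 78 further genes and the marker lists were chosen with earlier results of these data known. Values are given in full for the inhibitors, for genes with replicated H3K27me3 at the start or a replicated POU4F1 region, for windows with an ISL1 region in 4 libraries, and for the 2 best ISL1 ranks of each role, averaged over the 4 ISL1 lists, which differ in length. Pcna, Mcm6, Cdt1, Cdk4, E2f3 and other genes named beyond these were chosen after their values were seen.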

Additional observations from a re-analysis of the deposited data

How the results depend on the processing

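No paired analysis was possible because the results come from no test. The 7 genes with H3K27me3 at the start stayed at 7 without any 1 library (16.7%, all genes 9.77% to 18.7%). Without replicate 2 or 3 the calls needed replicate 1 peaks, which were near the list cutoff at Ccnd1, Ccnd2, Cdk6 and Cdkn1c. The count rose to 12 with the body and 10 kb on each side (28.6%, all genes 31.1%) and to 26 with a peak in 1 library enough (61.9%, all genes 43.9%). The inhibitor difference of 55.6 percentage points was 55.6 in each leave-out, 50 with the wider window and 38.9 with 1 kb around either gene end for every gene. The last setting, and counting the library labelled H3K4me3 replicate 1 with the 3 H3K27me3 libraries (8 genes, Cdk4 added, 19.0%, all genes 21.4%), were chosen after seeing the data. The 35 genes with H3K27ac became 16 with the 10000 best peaks of each list (38.1%, all genes 22.2%). They became 21 to 33 when 1 library was left out (all genes 21.4% to 44.1%). The H3K27ac inhibitor difference of −16.7 points turned to 22.2 with the 10000 best peaks. It ranged from −27.8 to 16.7 in the leave-outs, at 5.56 without replicate 2 and 16.7 without replicate 3. The 19 windows with ISL1 became 29 with 50 kb on each side (69.0%, all genes 62.1%), 11 at the start (26.2%, all genes 14.7%), 4 with the 10000 best peaks (9.52%, all genes 10.7%), 42 with a peak in 1 library enough (all genes 92.8%), 1 with all 4 required (2.38%, all genes 4.2%), and 9 to 16 when 1 library was left out (all genes 19.9% to 33.5%). The ISL1 inhibitor difference of −27.8 points was −5.56 at the start, 0.0 with 1 library enough, −5.56 with all 4 required and −38.9 to −16.7 in the leave-outs. The 0 windows with POU4F1 became 2 (Cdk2 and Mcm6) with 50 kb on each side (4.76%, all genes 3.98%), 29 with 1 library enough (69.0%, all genes 66.0%), and 16 to 20 when only 1 library was kept (38.1% and 47.6%, all genes 44.0% and 47.4%). The 33 H3K4me3 replicate 2 starts stayed between 30 and 38 (71.4% to 90.5%, all genes 32.6% to 60.4%). Where a setting requires fewer libraries or a wider window, more genes follow from its construction; the cause of the other shifts was not tested.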
